A study of Mus musculus with 4 samples.

Results

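Cluster 4 of the MoMacDC bundle held cells of the mouse spleen with the RNA of non-classical monocytes. The bundle is the set of CD11b+ splenocytes left once the clusters of other lineages (T and B cells, granulocytes, neutrophils and conventional dendritic cells, cDCs) were set aside, and its cells were clustered again by their RNA in the study. Members were all cells with the deposited cluster number 4, which gave 599 of the 6075 bundle cells and of the 11631 cells in all. The steady-state library supplied 460 of them and the library from GM-CSF-treated mice 139. Cluster 4 thus made up 21.5% of the bundle in steady state (460 of 2135 cells, exact 95% interval 19.8 to 23.4%) and 3.53% after GM-CSF (139 of 3940 cells, 2.97 to 4.15%). Cluster 2, the first neighbour used for comparison, held 14.4% and 7.54% of the bundle (307 and 297 cells), and cluster 5, the second, 20.7% and 3.58% (442 and 141 cells). A share of a library depends on every other cell type in it, so these values do not give cell numbers per spleen.

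The cells came from C57BL/6 mice aged 8 to 12 weeks, either untreated (steady state) or injected with GM-CSF (10 µg, once daily, 3 doses) and analysed 24 hours after the last. GM-CSF is a cytokine that acts on myeloid cells through a receptor coupled to the kinase JAK2 and the transcription factor STAT5. CITE-seq was used, which reads the RNA of a cell together with antibodies that carry DNA barcodes, here 5 antibody-derived tags (against Ly6C, CD115, CD301b, CD11c and MHC II). Each condition had 1 library, aimed at 7000 cells, so that the condition and the library cannot be told apart, no test between conditions was possible, and cells were not treated as replicates. How many mice contributed to a library is not given in the sources used here. Levels are CPM, the unique molecular identifiers (UMIs, 1 for each captured molecule) of a gene, added up in a cluster of 1 library and given per 1000000 UMIs of all genes there, with exact Poisson 95% intervals. All intervals cover counting error only. A gene was counted as higher or lower when its CPM differed at least 2-fold, with 0.5 counts added to each sum, among genes with at least 50 UMIs over both sums. The clusters were made from the RNA of these same cells, so RNA differences between clusters describe what was clustered, while the tags did not enter the clusters and are a separate readout.

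Monocytes of the mouse fall into classical monocytes, which carry Ly6C and the chemokine receptor CCR2 and leave the blood for inflamed tissue, and non-classical monocytes, which carry little Ly6C and patrol the inside of blood vessels. Non-classical monocytes arise largely from classical ones, depend on the nuclear receptor NR4A1, and survive through CSF1 (M-CSF) and its receptor CD115, the product of Csf1r. The spleen holds a reservoir of both kinds. The cluster was read by 5 marker genes. Nr4a1 encodes that nuclear receptor (GRCm38, chr15:101254269-101274795, plus strand). Ace encodes angiotensin-converting enzyme (chr11:105967945-105989964, plus strand). Cd300e encodes an activating receptor of myeloid cells (chr11:115051917-115062177, minus strand). Fcgr4 encodes an Fc receptor for immunoglobulin G (chr1:171018920-171029761, plus strand). Cx3cr1 encodes the receptor of the chemokine fractalkine (chr9:119901616-120069879, minus strand). All are protein-coding genes, and gene intervals are those of GENCODE.

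The promoters of the 3 markers with the largest RNA ratios to cluster 5 are printed so that the letters of their start regions can be read beside the levels. Each runs from 250 bases before to 50 after a RefSeq start site on GRCm38.p6, 5′ to 3′ on the strand of the gene. Capitals mark GAGGAA, the core letters of a PU.1 site, on either strand (TTCCTC when on the other one). Cd300e lies at chr11:115061990-115062289 on the minus strand, Fcgr4 at chr1:171018676-171018975 on the plus strand, and the first of the 2 start sites of Ace at chr11:105967698-105967997 on the plus strand.
Cd300e: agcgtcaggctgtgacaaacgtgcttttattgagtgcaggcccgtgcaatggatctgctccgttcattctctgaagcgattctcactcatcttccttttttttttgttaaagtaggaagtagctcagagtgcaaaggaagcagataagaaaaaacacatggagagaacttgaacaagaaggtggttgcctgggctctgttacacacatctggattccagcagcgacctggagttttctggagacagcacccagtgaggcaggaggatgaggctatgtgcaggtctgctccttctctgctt
Fcgr4: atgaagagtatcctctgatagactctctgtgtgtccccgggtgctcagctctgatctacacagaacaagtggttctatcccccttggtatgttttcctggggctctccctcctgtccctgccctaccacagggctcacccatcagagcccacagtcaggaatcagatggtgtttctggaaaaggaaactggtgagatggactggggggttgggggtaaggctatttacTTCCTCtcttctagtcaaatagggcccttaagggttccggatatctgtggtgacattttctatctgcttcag
Ace: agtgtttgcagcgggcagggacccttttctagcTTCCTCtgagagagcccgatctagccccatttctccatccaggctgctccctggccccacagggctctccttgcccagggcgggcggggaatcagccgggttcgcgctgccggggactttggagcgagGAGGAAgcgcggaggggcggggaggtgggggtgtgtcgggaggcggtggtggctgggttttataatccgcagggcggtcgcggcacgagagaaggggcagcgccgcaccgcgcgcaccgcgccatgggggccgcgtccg
The Ace window held 2 matches and the Fcgr4 window 1, and the Cd300e window held none. Of all 32851 RefSeq mouse promoters of this length, 28.3% held GAGGAA on either strand. The letters AAAGGTCA, to which NR4A1 binds as a monomer, stood in 1.51% of all promoters, and the C/EBP letters TTGCNNAA in 10.8%. Neither stood in any of the 6 promoter windows of the 5 markers (Ace has 2). A match describes letters only.

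Cells of cluster 4 held fewer UMIs than their neighbours. The median cell had 3636 UMIs and 1698.5 genes in steady state and 2493 UMIs and 1269 genes after GM-CSF, against 6865 and 6681 UMIs in cluster 2 and 7494 and 6970 in cluster 5. The cluster summed to 1939251 and 394634 UMIs, so that a gene without a UMI could stand at up to 1.55 CPM in steady state and 7.60 CPM after GM-CSF (3 counts). The median mitochondrial share was 2.85 and 3.26%. By the deposited cell cycle phase 79.1% (exact 95% interval 75.1 to 82.8%) and 76.3% (68.3 to 83.1%) of cells were in G1, and 14 and 3 cells were in G2/M. Scrublet called 0 and 1 of the cells doublets, and 8 cell barcodes occurred in both libraries, 3 of them in the bundle. In the clusters made from all CD11b+ cells, 93.9 and 93.5% of these cells lay together in 1 cluster of 625 cells, of which they made up 89.9%.

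All 5 markers had their highest CPM in cluster 4, in both libraries. This held among the 7 clusters with at least 50 cells in steady state and the 13 such clusters after GM-CSF, as the plot of marker levels by cluster shows. Nr4a1 stood at 1389.7 CPM (95% interval 1338 to 1443) in steady state and 370.0 CPM (95% interval 312 to 435) after GM-CSF, against 559 and 91.7 CPM in cluster 2 and 635 and 138 CPM in cluster 5. Ace stood at 975 CPM (95% interval 932 to 1020.1) and 664 CPM (95% interval 586 to 749) in the same order, against 504 and 164 CPM in cluster 2 and 176 and 115 CPM in cluster 5. Both genes were thus read in the neighbours too, at lower levels.

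Among the markers, Cd300e had the largest ratios to clusters 2 and 5. It stood at 524 CPM (95% interval 492 to 557) in steady state and 215 CPM (95% interval 172 to 266) after GM-CSF, against 6.88 and 3.53 CPM in cluster 2 and 8.51 and 0.992 CPM in cluster 5. The next highest clusters were cluster 11 in steady state, at 109 CPM (138 UMIs), followed by cluster 9 at 46.9 CPM, and cluster 9 after GM-CSF, at 6.05 CPM. Cd300e of cluster 4 was thus 4.804-fold (95% interval 4.03 to 5.80) above the next cluster in steady state and 33.9-fold (17.9 to 80.5) after GM-CSF. A Cd300e UMI was present in 77.2% (95% interval 73.1 to 80.9) of steady-state cells of cluster 4 and in 39.6% (95% interval 31.4 to 48.2) of those from GM-CSF-treated mice. The share was 3.26% in cluster 2, 3.17% in cluster 5 and 0.467% in granulocytes of the steady-state library, the last with a median of 1770.0 UMIs a cell. With each cell thinned to 1000 UMIs, which left out 2 steady-state cells of cluster 4 and none after GM-CSF, the cluster 4 shares were 40.8% and 17.3%, and that of granulocytes 0.156% (8 cells left out). Steady-state B cells, the cells outside the bundle with the next most UMIs of the gene, held one in 11.2% of cells (3.16% thinned).

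Fcgr4 stood at 519 CPM (95% interval 487 to 552) and 266 CPM (95% interval 218 to 322) in cluster 4, 79.4 and 31.2 CPM in cluster 2, and 29.9 and 24.8 CPM in cluster 5. The next highest cluster for Fcgr4 was cluster 11, at 184 CPM in steady state and 54.7 CPM after GM-CSF. Fcgr4 was also read in granulocytes, at 209.8 and 186 CPM. Cx3cr1 was the least distinct of the markers in steady state, at 562 CPM (95% interval 529 to 596) against 428 CPM in cluster 2 and 412 CPM in cluster 5, a ratio of 1.31 and 1.36. After GM-CSF it stood at 281, 118 and 109 CPM in clusters 4, 2 and 5. CD11b, the marker of the sort, was read as well, and its gene Itgam stood at 416 and 218 CPM in cluster 4.

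**Figure D1:**
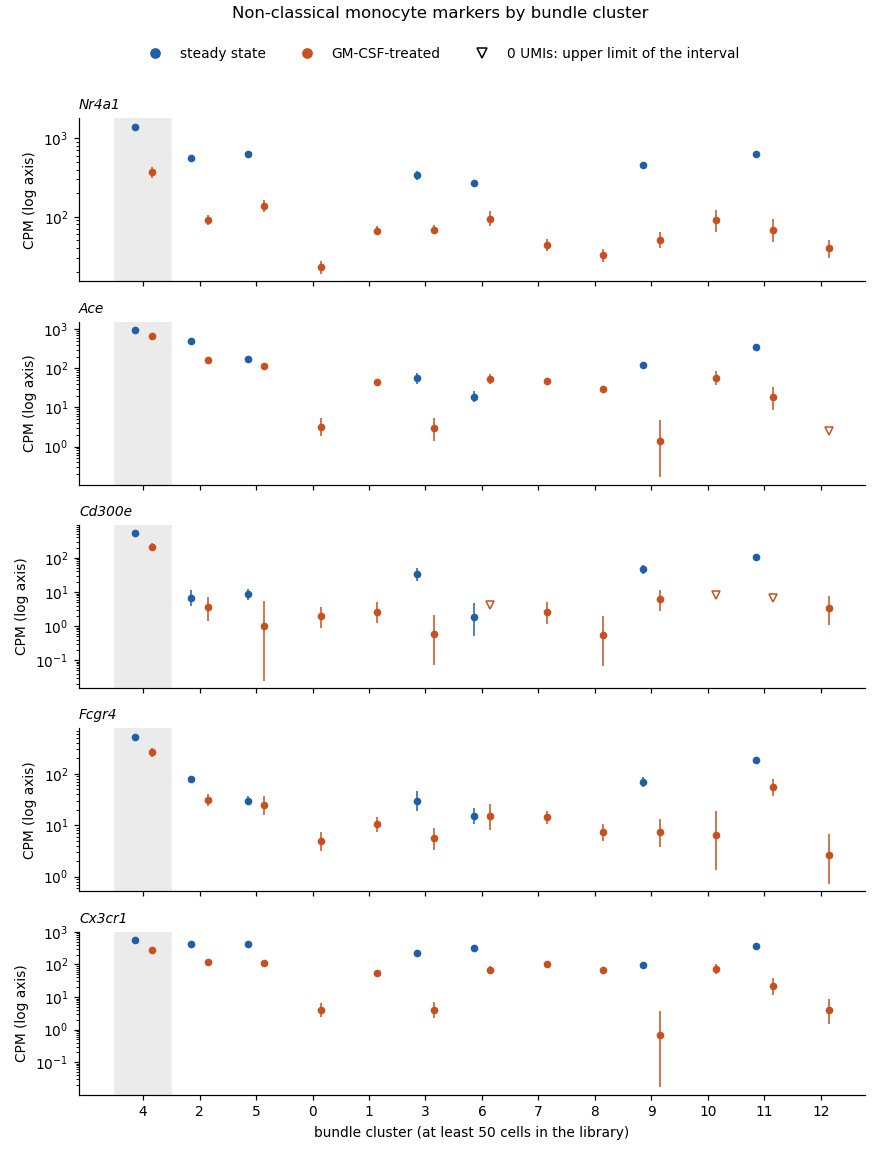
CPM of the 5 markers (log axis, exact Poisson 95% intervals) in each bundle cluster with at least 50 cells, steady-state library in blue and GM-CSF-treated library in orange. Cluster 4, in the shaded column, has the highest point of every marker in both libraries, and open triangles give the upper limit of the interval where no UMI was read.

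The tags, read apart from the RNA, separated cluster 4 from its neighbours by low Ly6C. The median Ly6C tag count was 32 in steady state (quartiles 24 and 71.3) and 9 after GM-CSF (6 and 16), against 713 and 77 in cluster 2 and 939 and 78 in cluster 5. B cells, which should carry little Ly6C, had medians of 24 and 8. The 93.9% of cluster 4 cells in steady state that fell below the lowest Ly6C count of a CD115hi classical monocyte (195 counts) compare with 11.1% in cluster 2 and 0.905% in cluster 5. After GM-CSF that limit lay at 47 counts, and 92.1% of cluster 4, 25.3% of cluster 2 and 21.99% of cluster 5 fell below it. All other bundle cells, clusters 2 and 5 included, had a median Ly6C count of 726 in steady state. After GM-CSF their median was 20 (quartiles 12 and 64), below the limit, so a count below it was not particular to cluster 4. Taking 1 cell from each cluster, the cell of cluster 4 had the lower Ly6C count in 96.5% of pairs with cluster 2 and 99.0% of pairs with cluster 5 in steady state, and in 92.9 and 93.98% after GM-CSF (ties shared equally).

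CD11c set the cluster apart from clusters 2 and 5 in steady state. Its median tag count was 54 in cluster 4 and 3 in each of clusters 2 and 5, and B cells had 1. All other bundle cells, clusters 2 and 5 included, had a median of 4 (quartiles 2 and 23). Some of them held more CD11c than any cell of cluster 4, with a highest count of 947 against 423. The RNA of Itgax, the gene of CD11c, stood at 225 CPM in cluster 4, 57.8 CPM in cluster 2 and 9.68 CPM in cluster 5. After GM-CSF the CD11c medians were 96, 77 and 51 in clusters 4, 2 and 5 and 8 in B cells, and Itgax stood at 289, 158 and 68.5 CPM. All other bundle cells had a median CD11c count of 167 there, above that of cluster 4. The pairs in which the cell of cluster 4 had the higher CD11c count went from 90.8% (cluster 2) and 96.4% (cluster 5) in steady state to 57.6 and 72.6% after GM-CSF.

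The CD115 tag did not single out the cluster. Its median was 4 in cluster 4, 6 in cluster 2 and 4 in cluster 5 in steady state, and 39, 43 and 41 after GM-CSF, with 0 and 2 in B cells. The RNA of Csf1r stood at 973 and 654 CPM in cluster 4, 758 and 332 CPM in cluster 2, and 619 and 265 CPM in cluster 5, so that the order of the RNA was not that of the tag. The MHC II tag had a median of 23 in cluster 4 in both libraries, while that of cluster 2 was 14 and 100 and that of cluster 5 was 8 and 84. The quartiles of cluster 4 were 10 and 54 in steady state and 12.5 and 79.5 after GM-CSF. B cells, which carry MHC II, had medians of 444 and 407. CD301b was lowest in cluster 4, with medians of 0.5 and 5 against 5 and 10 in cluster 2 and 6 and 9 in cluster 5.

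**Figure D2:**
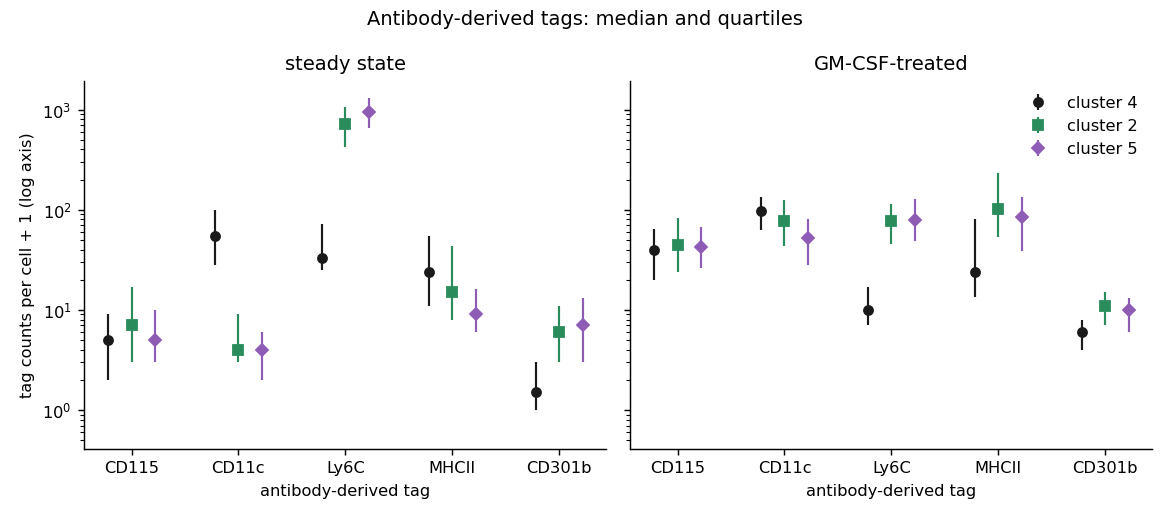
Median tag counts per cell, plus 1, with quartiles as bars (log axis), for clusters 4, 2 and 5 in the steady-state library (left) and the GM-CSF-treated library (right). Ly6C of cluster 4 lies below that of both neighbours in each panel, CD11c stands apart on the left, and MHC II of cluster 4 lies below both on the right.

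Few cells of the cluster fell in the CD115hi gate that the study set on the tags. It held 24 of 460 cells in steady state (5.22%, exact 95% interval 3.37 to 7.66%) and 20 of 139 after GM-CSF (14.4%, 9.02 to 21.3%), and the lowest CD115 count inside the gate was 21 and 84. P-II, the subset that the study calls non-classical monocytes, counted 8 cells in each library, of which 7 and 5 lay in cluster 4. The other P-II cells lay in cluster 11 in steady state (1 cell) and in clusters 1 (1 cell) and 2 (2 cells) after GM-CSF. Cluster 4 also held 3 and 3 cells of P-I (classical monocytes), 9 and 6 of P-III, and 3 and 0 of P-IV. The RNA cluster and the tag gate thus overlapped in 12 of 599 and 12 of 16 cells.

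Further genes of non-classical monocytes had the same order. All 12 of a list were highest in cluster 4 among the steady-state clusters, and 11 of 12 after GM-CSF, where Pglyrp1 was second to cluster 11. The list was chosen with earlier results of these data known, so its order only describes these genes. The share of all genes that were highest in cluster 4 was not counted. Under a stricter rule, at least 2-fold above each other cluster, it was 95 of 5072 genes in steady state and 45 of 1269 after GM-CSF. Spn, which encodes CD43, the surface sialoglycoprotein used to gate these cells, stood at 941 and 337 CPM in cluster 4 against 214 and 40.8 in cluster 2 and 233 and 76.4 in cluster 5. Eno3, a muscle-type enolase known from non-classical monocytes, stood at 474 and 203 CPM, 92.2 and 14.1 CPM, and 34.3 and 11.9 CPM in the same order of clusters. S1pr5, a receptor for sphingosine 1-phosphate, stood at 229 and 104 CPM, against 37.2 and 2.02 CPM in cluster 2 and 25.2 and 0.992 CPM in cluster 5. Cebpb, whose product is needed for the survival of these monocytes, had the lowest ratio to both neighbours, at 3143, 1709 and 2100.2 CPM in clusters 4, 2 and 5 in steady state. The next highest steady-state cluster was cluster 11 for all of the list but Treml4 and Adgre4, where it was cluster 2. Cluster 11 stood at 352 CPM for Spn, 146 for Eno3, 69.3 for S1pr5 and 2221 for Cebpb, nearer to cluster 4 than either neighbour.

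Over all genes, list members included, 95 of 5072 with enough UMIs were at least 2-fold above each other cluster in steady state (6 other clusters) and 45 of 1269 after GM-CSF (12 others). Of these, 16 met the rule in both libraries: Cd300e, Ceacam1, Cyth3, Dusp16, Eno3, Fabp4, Fcgr4, Hip1, Hpgd, Lair1, Ly6a, Nr4a1, Pou2f2, Spn, Stk10 and Treml4. Adrb1, the beta-1 adrenergic receptor, was the most particular gene in steady state. It stood at 84.6, 5.51 and 1.76 CPM in clusters 4, 2 and 5 (164 UMIs in cluster 4), and at 109, 5.54 and 1.98 CPM after GM-CSF. Fabp4, a carrier of fatty acids, stood at 545, 38.5 and 15.3 CPM in steady state and 159.6, 4.03 and 0 CPM after GM-CSF. Vegfc, a growth factor of lymphatic vessels, stood at 41.8, 8.72 and 3.81 CPM and 40.5, 0.504 and 1.98 CPM, and Tgfbr3, a co-receptor for TGF-beta, at 75.3, 8.26 and 4.11 CPM and 50.7, 3.02 and 1.98 CPM. Ikzf3 and Ets1, transcription factors best known from lymphocytes, stood at 90.2, 5.96 and 2.64 CPM and 101, 11.9 and 1.76 CPM in steady state, and at 53.2, 0.504 and 0 CPM and 27.9, 2.02 and 0 CPM after GM-CSF. Lilra5, a leukocyte immunoglobulin-like receptor, stood at 117, 23.4 and 4.4 CPM and 88.7, 15.6 and 7.94 CPM.

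Against cluster 2 in steady state, 359 of 7001 genes were at least 2-fold higher in cluster 4 (5.13% of genes compared) and 334 lower (4.77%). Against cluster 5, 458 of 7546 were higher (6.07%) and 461 lower (6.11%). The steady-state counts of list members given below are to be read beside these shares. The median log2 ratio of all genes compared was 0.10 and 0.08. Of the 5 markers 3 were higher against cluster 2 (Nr4a1, Cd300e and Fcgr4) and 4 against cluster 5 (also Ace). Of the 12 further non-classical genes 10 and 11 were higher and none lower. Cd300e was 73.7-fold (95% interval 45.9 to 137) higher than in cluster 2 and 60.6-fold (95% interval 42.6 to 92.4) higher than in cluster 5, and Fcgr4 6.52-fold (95% interval 5.56 to 7.73) and 17.3-fold (95% interval 14.1 to 21.5). Other genes at the upper end against cluster 2 had varied functions, among them Scnn1a, a subunit of the epithelial sodium channel, at 101, 5.51 and 12.9 CPM in clusters 4, 2 and 5, Tgm3, a transglutaminase, at 60.3, 4.59 and 3.52 CPM, and Dusp16, a phosphatase of MAP kinases, at 571, 48.2 and 18.8 CPM.

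Genes of classical monocytes were lower in cluster 4. Of 12 such genes, all past the minimum of UMIs, 10 were lower than in cluster 2 and all 12 lower than in cluster 5, and none higher. Ly6c2, which encodes Ly6C together with a near-identical paralog so that reads of the pair may be split, stood at 52.6, 822 and 1248 CPM in clusters 4, 2 and 5. Ccr2, the chemokine receptor that draws monocytes from the bone marrow, stood at 57.8, 782 and 966 CPM. F13a1, the A chain of coagulation factor XIII, stood at 5.16, 193 and 612 CPM, and Fn1, the gene of fibronectin, at 23.7, 493 and 1617 CPM. Vcan, the gene of versican, stood at 1.03, 44.04 and 122 CPM. Plac8, a lysosomal protein gene abundant in myeloid cells, stood at 2126, 7448 and 5192 CPM. Hp (haptoglobin) and Mgst1 did not pass 2-fold against cluster 2, at 143, 278 and 426 CPM and 202, 312 and 487 CPM. The plot of monocyte genes over both neighbours shows these ratios.

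**Figure D3:**
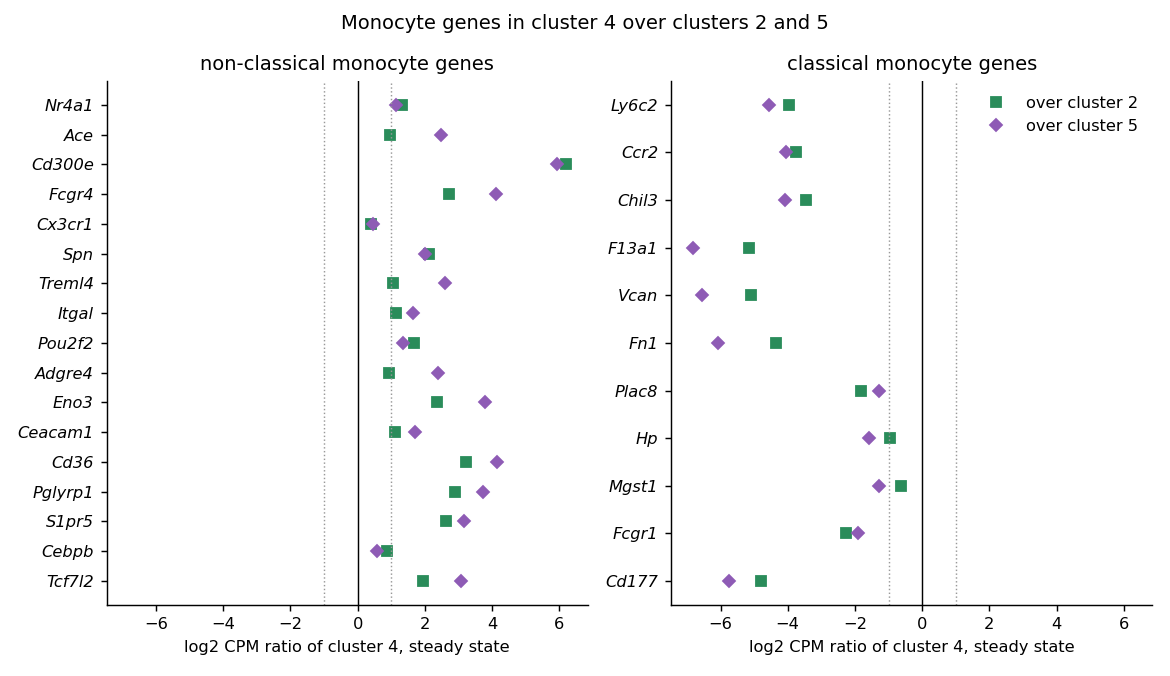
Log2 CPM ratio of cluster 4 to cluster 2 (squares) and to cluster 5 (diamonds) in the steady-state library for the 17 non-classical (left) and 11 classical monocyte genes (right), with dotted lines at 2-fold. The non-classical genes lie right of 0 and the classical genes left of it.

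Among genes at the low end, several held almost no UMI in cluster 4. Thbs1, the gene of thrombospondin 1, had 1 UMI there and stood at 0.516, 173 and 203 CPM, which put it 263-fold (95% interval 70.4 to 15574) lower than in cluster 5. Lmna, the gene of lamins A and C, had 0 UMIs in cluster 4 against 283 in cluster 5 (83.04 CPM) and was at least 53.7-fold lower (3 counts). Dnase1l3, a secreted DNase of macrophages and dendritic cells, had 0 UMIs against 87 in cluster 2 (39.9 CPM), at least 25.8-fold lower. Axl, a receptor that binds apoptotic cells through its ligand, stood at 1.55, 56.9 and 25.5 CPM, and Capg, a cap protein of actin filaments, at 6.7, 163 and 363 CPM. Tmem176a, a membrane protein, stood at 7.22, 285 and 89.2 CPM, and after GM-CSF at 58.3, 134 and 19.8 CPM.

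Transcription factors went both ways. Of 20 on the list, 19 were in the table and 15 and 17 passed the minimum against clusters 2 and 5. Nr4a1, Klf4, Pou2f2, Bcl6 and Tcf7l2 were higher in cluster 4 in both comparisons. Klf4, which acts in the making of monocytes, stood at 1071, 394 and 510.2 CPM in clusters 4, 2 and 5. Pou2f2, which encodes OCT2, stood at 2213, 697 and 871 CPM, and Bcl6, a repressor, at 241, 95.9 and 93.6 CPM. Cebpa, a driver of classical monocytes and granulocytes, stood at 39.7, 94.5 and 127 CPM and was lower in both, as was Maf at 14.95, 50.9 and 66.3 CPM, which after GM-CSF stood at 22.8, 23.2 and 20.8 CPM. Irf8 and Spi1, factors of the monocyte lineage, did not pass 2-fold in either, at 252, 411 and 401 CPM and 778, 637 and 671 CPM. The close relative Nr4a2 stood at 5.16, 15.1 and 15.6 CPM, and Nr4a3 had 1 UMI in cluster 4 in steady state and none after GM-CSF.

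Genes of adhesion and migration, which set how a monocyte meets the vessel wall, included 8 of 18 higher and 3 lower than in cluster 2, and 7 higher and 2 lower than in cluster 5. Itgal, the alpha chain of the integrin LFA-1 on which patrolling depends, stood at 2218, 1010.2 and 705 CPM, and its partner Itgb2 at 943, 439 and 521 CPM. Pecam1, the gene of CD31, stood at 134, 15.6 and 6.16 CPM, which was 8.45-fold (95% interval 5.97 to 12.6) higher than in cluster 2 and 21.2-fold (95% interval 13.9 to 35.6) higher than in cluster 5. Ceacam1 stood at 565, 263 and 171 CPM and Cxcr4, the receptor of the chemokine CXCL12, at 353, 134 and 109 CPM. Icam1 was lower than in cluster 2 alone, at 36.1, 93.1 and 66.6 CPM.

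Receptors for immunoglobulin and complement genes were mixed. Of 6 Fc receptor genes 2 were higher against each neighbour (Fcgr4 and Fcgrt) and 2 lower (Fcgr1 and Fcgr2b). Fcgr1, which encodes CD64, stood at 29.4, 144 and 111 CPM, Fcgr2b, which encodes the inhibitory receptor, at 78.4, 257 and 168 CPM, and Fcgrt, the neonatal Fc receptor that recycles immunoglobulin G, at 62.4, 24.8 and 24.9 CPM. The shared signalling chain Fcer1g stood at 3144, 2582 and 2427 CPM. Of 14 complement genes 6 passed the minimum, with Itgax higher and C3 and Cfp lower against both neighbours. C3, the central component, stood at 114, 376 and 459 CPM and Cfp, the gene of properdin, at 19.1, 50.01 and 83.9 CPM, while C1qa was not read in cluster 4.

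The RNA of MHC class II genes set cluster 4 apart from cluster 2 in steady state, but the MHC II tag did not. The median tag count was 23 in cluster 4 and 14 in cluster 2. Taking 1 cell from each, the cell of cluster 4 had the higher count in 56.2% of pairs. An H2-Aa UMI was present in 45.0% of cluster 2 cells and 14.1% of cluster 4 cells. All 7 of 10 that passed the minimum were lower than in cluster 2, among them H2-Aa at 118, 1221 and 90.7 CPM and the invariant chain Cd74 at 709.6, 2971 and 438 CPM. Ciita, the master activator of these genes, stood at 2.06, 64.2 and 10.9 CPM. Against cluster 5, 6 passed the minimum, H2-Eb1 was higher at the limit of the rule (54.7 against 27.3 CPM), and the peptide-loading genes H2-DMa and H2-DMb1 were lower, at 57.8, 365 and 255 CPM and 26.8, 160.1 and 60.7 CPM.

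Interferon-stimulated genes were lower in cluster 4 in steady state. Of 15, all past the minimum, 12 were lower than in cluster 2 and 9 lower than in cluster 5, and none was higher. Of all genes compared, 4.77% and 6.11% were lower. Isg15, a ubiquitin-like modifier, stood at 10.3, 177 and 98.6 CPM, Ifit3 at 7.73, 83.04 and 19.7 CPM and the chemokine gene Cxcl10 at 6.19, 135 and 17.6 CPM in clusters 4, 2 and 5. Ifitm3 and Ifitm6, membrane proteins of the antiviral defence, did not pass 2-fold, at 2512, 3713 and 4008 CPM and 422, 390.4 and 547 CPM. The median log2 ratio of the list was -2.12 against cluster 2 and -1.31 against cluster 5. Thinned to 1000 UMIs per cell, Cxcl10 turned against cluster 5, to a log2 ratio of 0.40. After GM-CSF 10 of the 13 past the minimum were lower than in cluster 2 (5.76% of all genes compared were lower), but 1 of 5 was lower than in cluster 5 (4.61%). There Ifit3, Rsad2 and Usp18 took the opposite sign against cluster 5 and Isg20 against cluster 2, on few UMIs in cluster 4.

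Survival genes of the Bcl-2 family included Bcl2 itself, at 207, 53.2 and 35.2 CPM, which was 3.87-fold (95% interval 3.15 to 4.82) higher than in cluster 2 and 5.86-fold (95% interval 4.78 to 7.26) higher than in cluster 5. Of 13 genes 12 passed the minimum, with 2 higher and none lower against cluster 2, and 4 higher and 2 lower against cluster 5. The Bcl2a1 genes are near-identical copies whose reads may be split, and Bcl2a1a, Bcl2a1b and Bcl2a1d stood at 142, 93.6 and 9.68 CPM, 332, 179 and 20.2 CPM and 245, 106 and 21.7 CPM. Bcl2l11, which encodes the pro-apoptotic BIM, stood at 37.6, 71.1 and 75.99 CPM and was lower than in cluster 5. Mcl1 stood at 1007, 905 and 939 CPM and did not pass 2-fold.

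Lipid genes went both ways as well. Of 14, 13 and 14 passed the minimum, with Cd36, Fabp4, Abca1, Abcg1 and Pparg higher against both neighbours. Cd36, a fatty acid transporter, stood at 342, 36.2 and 19.4 CPM, Pparg, a fatty acid-sensing nuclear receptor, at 131, 16.1 and 6.75 CPM, and Abcg1, a cholesterol exporter, at 192, 88.5 and 58.1 CPM. Msr1, a scavenger receptor, stood at 13.9, 109 and 107 CPM and Trem2 at 12.9, 37.2 and 44.3 CPM, and both were lower. Apoe, a lipid carrier, stood at 2714, 1833 and 1526 CPM and did not pass 2-fold. In the GM-CSF-treated library the ratio of Abcg1 to cluster 2 and those of Abca1 to both neighbours had the opposite sign.

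Among genes of the GM-CSF receptor and its signalling, Csf2ra and Csf2rb, which encode the receptor chains, stood at 283, 238 and 244 CPM and 178, 267 and 168 CPM and did not pass 2-fold. Of 13 genes 9 passed the minimum, and Csf2rb2 and Osm were lower against both neighbours, at 6.7, 34.4 and 19.4 CPM and 6.19, 22.9 and 39.9 CPM. Socs3, a feedback inhibitor of cytokine signals, was higher than in cluster 2 alone, at 240.3, 108 and 140.0 CPM. Of 7 growth factor receptors none of the 5 past the minimum passed 2-fold against cluster 2, and against cluster 5 Tgfbr1 and Tgfbr2 were higher and Flt3 and Il3ra lower among 6. Of 13 immediate early genes, which respond within minutes to stimulation or handling, none passed 2-fold against cluster 2, and Ier3 alone was lower than in cluster 5.

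The study also listed 32 genes of its P-IV cells and 18 genes of cycling cells, chosen on these same libraries, so that neither is independent evidence. Of the 32, 13 passed the minimum against cluster 2 with 4 higher and 4 lower, and 17 against cluster 5 with 5 higher and 8 lower. Cd9, a tetraspanin, was the one with the largest upward ratio against cluster 2, at 392, 38.1 and 34.04 CPM. Mgl2, which encodes CD301b, had no UMI in cluster 4 in either library. Of the cycling genes 8 passed the minimum, of which Smc2, a condensin subunit, was higher against both neighbours (24.2, 11.9 and 11.1 CPM), while Mki67 and Top2a stood at 1.55 and 7.73 CPM in cluster 4.

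Between the libraries, 129 of 5565 genes were at least 2-fold higher in cluster 4 of GM-CSF-treated mice (2.32%) and 350 lower (6.29%), with a median log2 ratio of -0.07 over all genes compared. In cluster 2 the same ratio gave 265 of 6936 genes higher (3.82%) and 480 lower (6.92%), and in cluster 5 it gave 230 of 7086 higher (3.25%) and 478 lower (6.75%), with medians of -0.12 and -0.08. The 3 comparisons share the same pair of libraries, so their values are given side by side without a test. The counts of list members between the libraries given below are to be read beside these shares. Cells of cluster 4 from GM-CSF-treated mice held fewer UMIs each (median 2493 against 3636), which was not the case to that extent in cluster 2 (6681 against 6865). Its part in these ratios was not tested apart from thinning to 1000 UMIs per cell. That left 2103 genes past the minimum, of which 64 were higher and 155 lower, so these counts are not to be set against those of 5565 genes.

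Genes of MHC class II were higher in the GM-CSF-treated library. All 6 of 10 past the minimum were higher in cluster 4, and so were 9 of 9 in cluster 2 and 7 of 7 in cluster 5. Of all genes compared, 2.32%, 3.82% and 3.25% were higher in the same order. H2-Aa stood at 118 CPM (95% interval 103 to 134) in steady state and 1003 CPM (95% interval 907 to 1107) after GM-CSF, a ratio of 8.53-fold (95% interval 7.23 to 10.1), and the ratio was 2.71 in cluster 2 and 23.3 in cluster 5. H2-Eb1 stood at 54.7 and 613 CPM, and Cd74 at 709.6 and 2879 CPM. An H2-Aa UMI was present in 14.1% (95% interval 11.1 to 17.7) of cells in steady state and 44.6% (95% interval 36.2 to 53.3) after GM-CSF, or 6.55% and 31.7% at 1000 UMIs per cell, with 2.08% and 6.8% in granulocytes (8 and 496 left out). Even so H2-Aa stood at 1003 CPM in cluster 4 of GM-CSF-treated mice and at 3309 and 2113 CPM in clusters 2 and 5. The median MHC II tag of cluster 4 was 23 in both libraries, while its upper quartile was 54 in steady state and 79.5 after GM-CSF.

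Other genes were at the upper end in cluster 4. Htra3, a secreted serine protease (chr5:35652023-35679782, minus strand), had 0 UMIs in 460 steady-state cells, which allows up to 1.55 CPM, and 73 UMIs after GM-CSF (185 CPM), at least 119.6-fold higher (3 counts). It stood at 79.6 and 119 CPM in clusters 2 and 5 after GM-CSF, and at 2.07 CPM in granulocytes. Batf3, a transcription factor of the AP-1 family known from dendritic cells, stood at 4.13 and 111 CPM, 25.7-fold (95% interval 12.6 to 66.5) higher, against 2.16- and 2.74-fold in clusters 2 and 5. Fabp5, a fatty acid carrier, stood at 55.7 and 909.7 CPM, 16.3-fold (95% interval 13.1 to 20.4) higher, and Lpl, the gene of lipoprotein lipase, at 9.28 and 86.2 CPM. Capg stood at 6.7 and 132 CPM in cluster 4, while it was 163 and 247 CPM in cluster 2 and 363 and 415 CPM in cluster 5. Adamdec1, a metalloprotease, stood at 11.3 and 137 CPM and Shtn1 at 11.3 and 119 CPM.

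A pair of classical monocyte genes was higher in cluster 4 of GM-CSF-treated mice and not in its neighbours. Ccr2 stood at 57.8 CPM (95% interval 47.6 to 69.5) in steady state and 312 CPM (95% interval 259 to 372) after GM-CSF, 5.39-fold (95% interval 4.14 to 7.03) higher. In cluster 2 it stood at 782 and 577 CPM and in cluster 5 at 966 and 659 CPM, so that its level in cluster 4 remained the lowest of the 3. A Ccr2 UMI was present in 12.2% (95% interval 9.33 to 15.5) and 40.3% (95% interval 32.1 to 48.9) of cluster 4 cells, and in 3.71% and 25.9% at 1000 UMIs per cell, with 1.04% and 0.726% of granulocytes unthinned. Plac8 stood at 2126 and 4962 CPM in cluster 4, 7448 and 6695 in cluster 2, and 5192 and 5024 in cluster 5. Of the 12 classical genes 8 passed the minimum in cluster 4, and Ly6c2, Chil3, Mgst1 and Fcgr1 were lower, Ly6c2 at 52.6 and 2.53 CPM with 102 and 1 UMIs, 13.9-fold (95% interval 3.64 to 828) lower. F13a1, Vcan and Cd177 were under the minimum.

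Fcgr2b stood at 78.4 and 423 CPM in cluster 4, 5.4-fold (95% interval 4.31 to 6.77) higher, and was also higher in cluster 2 (2.42-fold) and cluster 5 (3.06-fold). Fcgr1 was lower in all 3 clusters, at 29.4 and 12.7 CPM in cluster 4. Cfp stood at 19.1 and 109 CPM in cluster 4 and was higher.

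Most genes of non-classical monocytes were lower in the GM-CSF-treated library, also in cluster 4. Of the 5 markers Nr4a1, at 3.74-fold (95% interval 3.18 to 4.47), and Cd300e, at 2.42-fold (95% interval 1.95 to 3.07), were lower in cluster 4. Cx3cr1, at 1.99-fold (95% interval 1.64 to 2.45), and Fcgr4, at 1.94-fold (95% interval 1.59 to 2.41), lay just short of 2-fold, and Ace stood 1.47-fold (95% interval 1.29 to 1.68) lower. Nr4a1 was lower in clusters 2 and 5 too, by 6.09- and 4.59-fold. Of the 12 further genes 9 were lower in cluster 4, none higher, and Treml4, Cebpb and Tcf7l2 did not pass 2-fold. The list was lower in 12 of 12 genes in cluster 2 and 8 of 12 in cluster 5, with medians of -1.14, -1.77 and -1.47 in clusters 4, 2 and 5. Fabp4 and Cd36 were also lower in cluster 4, by 3.39- and 2.24-fold.

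Some genes kept more of their level in cluster 4 than in its neighbours. Apoe stood at 2714 and 451 CPM in cluster 4, 6.001-fold (95% interval 5.18 to 7.03) lower, while it went from 1833 to 20.2 CPM in cluster 2 (89.9-fold) and from 1526 to 10.9 CPM in cluster 5 (134-fold). In B cells Apoe stood at 789.8 and 1749 CPM, where it was higher after GM-CSF. Bcl2 stood at 207 and 73.5 CPM in cluster 4, 2.77-fold (95% interval 1.93 to 4.26) lower, against 12.5-fold in cluster 2 and 14.3-fold in cluster 5. Slc11a1, a metal transporter of phagosomes, stood at 209.9 and 200.2 CPM, against 109 and 20.7 and 107 and 21.8. Slc12a2, an ion cotransporter, rose in cluster 4, from 398 to 659 CPM, short of 2-fold. For these 4 genes the interval of the ratio in cluster 4 did not overlap that of either neighbour, except for Slc12a2 in cluster 5, which had 69 and 20 UMIs. Slc11a1 and Slc12a2 were picked after their values were seen. The share of all genes with intervals apart in this way was not counted, so the values describe these genes only.

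**Figure D4:**
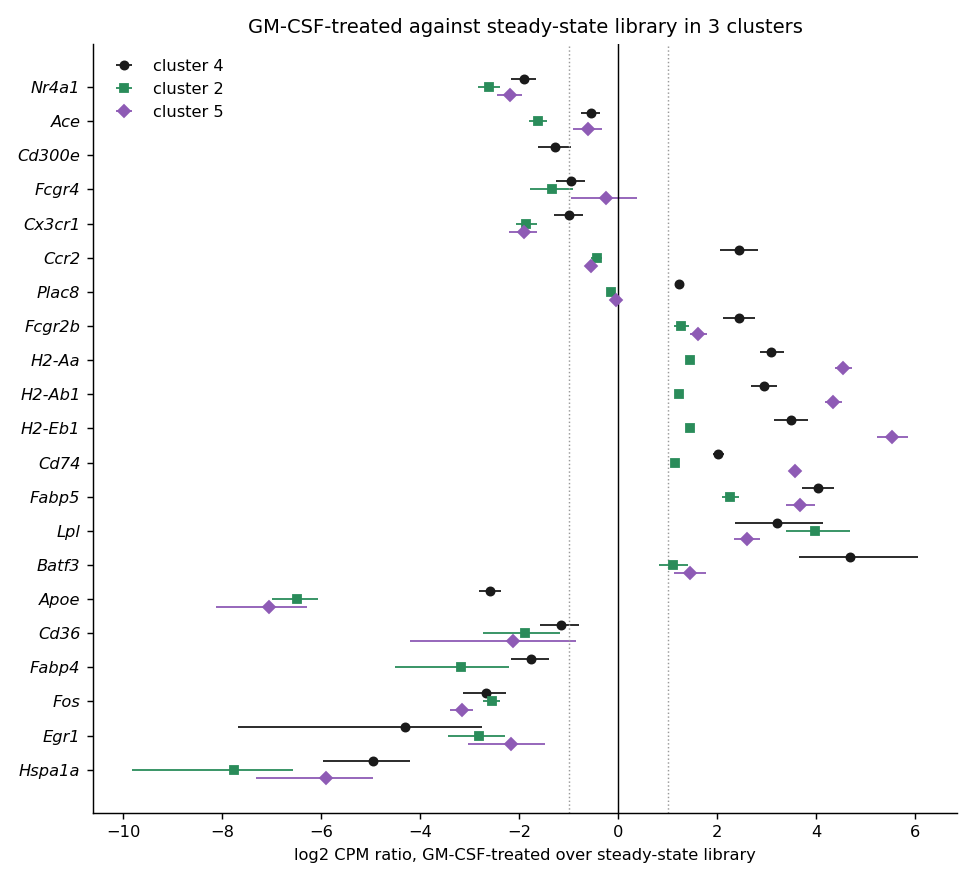
Log2 CPM ratio of the GM-CSF-treated to the steady-state library for 21 genes in clusters 4 (circles), 2 (squares) and 5 (diamonds), with exact 95% intervals and dotted lines at 2-fold. Ccr2 and Plac8 lie right of 0 in cluster 4 alone, the MHC II genes lie right in all 3, and Apoe of cluster 4 lies nearer to 0 than that of its neighbours. A point is left out where a sum held no UMI (Fabp4 in cluster 5) or too few UMIs were read (Cd300e in clusters 2 and 5).

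Immediate early and heat shock genes were lower as well, also outside the cluster. Of 13 immediate early genes 12 passed the minimum in cluster 4, and 8 were lower (Fos, Fosb, Jun, Jund, Egr1, Dusp1, Atf3 and Zfp36). Of all genes compared, 6.29% were lower in cluster 4, 6.92% in cluster 2 and 6.75% in cluster 5. Fos stood at 771 and 119 CPM in cluster 4, 942 and 160.2 in cluster 2, 1407 and 157 in cluster 5, 596 and 87.6 in B cells and 1917 and 617 in granulocytes. Of the same list 9 were lower in cluster 2, 7 in cluster 5, 8 in B cells (where 13.8% of all genes compared were lower) and 4 in granulocytes (3.2% of all genes). Hspa1a, an inducible heat shock gene with a near-identical copy (Hspa1b), stood at 981 and 30.4 CPM in cluster 4, at 495 and 2.02 in cluster 2, at 329 and 0 in B cells, and at 14.7 and 2.9 in granulocytes. Nr4a1, which is itself an immediate early gene as well as the marker of the cluster, stood at 331 and 27.9 CPM in B cells and 174 and 103 CPM in granulocytes. Among the 196 steady-state B cells 26 held RNA of at least 3 of 5 cluster 4 genes (Cd300e, Fabp4, Ace, Fcgr4 and Eno3), and 0 of the 79 from GM-CSF-treated mice did. Whether the lower immediate early genes belong to the treatment or to the library cannot be told apart.

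Between the libraries in cluster 4, 14 of 20 transcription factors passed the minimum, none was higher, and Nr4a1, Klf4 and Pou2f2 were lower. Of the adhesion genes 17 passed, Ccr2 was higher, and Itgal, Icam1, Spn, S1pr5, Cxcr4 and Ceacam1 were lower, although Icam1 was not when cells were thinned to 1000 UMIs (a log2 ratio of 0.0041). Of the 7 genes of GM-CSF signalling past the minimum Socs3 was lower (240.3 and 106 CPM) and none higher, and Cish, a target of STAT5, had 0 and 2 UMIs. Csf2rb stood at 178 and 208 CPM. Of 4 growth factor receptors none passed 2-fold. Of 11 Bcl-2 family genes Bcl2 alone was lower. Of 6 interferon-stimulated genes past the minimum 2 were lower, Irf7 among them, and 9 of the 15 were under it in these smaller sums. Of 12 lipid genes Fabp5 and Lpl were higher and Apoe, Cd36, Fabp4, Abca1 and Pparg lower. Abca1 had 0 UMIs in cluster 4 after GM-CSF and was at least 3.73-fold lower (3 counts). Of the 32 P-IV genes 7 passed and 1 was lower, and of the 18 cycling genes 4 passed and none passed 2-fold.

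Within the cluster, cells with a higher Ly6C tag held more UMIs and, in steady state, more RNA of some classical monocyte genes. Cells were split at the median Ly6C count of the cluster, 32 in steady state (231 cells at or below, 229 above) and 9 after GM-CSF (75 and 64). The median UMIs per cell were 3246 in the lower and 4492 in the upper group in steady state, and 2232 and 3251.5 after GM-CSF. In steady state Ly6c2 stood at 12.2 CPM in the lower and 77.5 CPM in the upper group, a ratio of upper to lower of 6.36 (95% interval 3.21 to 14.3). Chil3, a chitinase-like gene of classical monocytes, stood at 21.7 and 259.9 CPM, a ratio of 11.995 (95% interval 7.27 to 21.2), and Ccr2 at 29.8 and 74.96 CPM, a ratio of 2.52 (95% interval 1.57 to 4.21). Cd300e and Fcgr4 lay the other way, at 638 and 454 CPM and 628 and 451 CPM, with ratios of lower to upper of 1.4 (95% interval 1.24 to 1.59) and 1.39 (95% interval 1.23 to 1.58). Fabp4 and Cd36 had ratios of 1.33 (95% interval 1.18 to 1.51) and 1.36 (95% interval 1.16 to 1.58). For Nr4a1, Ace, Cx3cr1 and Spn the interval of the ratio included 1, with the ratio of Nr4a1 at 1.05 (95% interval 0.973 to 1.14). With each cell thinned to 1000 UMIs, the ratio of upper to lower was 9.08 (95% interval 2.17 to 80.7) for Ly6c2, 24.2 (6.35 to 205.6) for Chil3 and 4.24 (1.55 to 14.4) for Ccr2, on 2, 2 and 5 UMIs in the lower group. The thinned ratio of lower to upper was 1.38 (1.07 to 1.78) for Cd300e and 1.43 (1.10 to 1.85) for Fabp4, while the interval for Fcgr4 included 1, at 1.25 (0.967 to 1.61), Cd36 stood at 1.003 (0.731 to 1.38), and Nr4a1 at 1.26 (1.07 to 1.48) no longer included 1.

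After GM-CSF the same split gave 392 and 175 CPM for Fcgr4, a ratio of lower to upper of 2.24 (95% interval 1.49 to 3.42), and 284 and 166 CPM for Cd300e, 1.71 (95% interval 1.09 to 2.69). Thinned, these were 2.47 (1.12 to 5.98) for Fcgr4 and 2.44 for Cd300e (0.990 to 6.82, which includes 1). Chil3 again lay in the upper group, at 6.03 and 127 CPM. Ccr2, the gene that was higher after GM-CSF, stood at 266 and 345 CPM, and the interval of its ratio, 1.3 (95% interval 0.888 to 1.92), included 1. H2-Aa stood at 760.3 and 1179.5 CPM, a ratio of upper to lower of 1.55 (95% interval 1.25 to 1.93) that was 1.46 (0.985 to 2.17) when thinned, whereas in steady state it stood at 118 and 117 CPM.

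**Figure D5:**
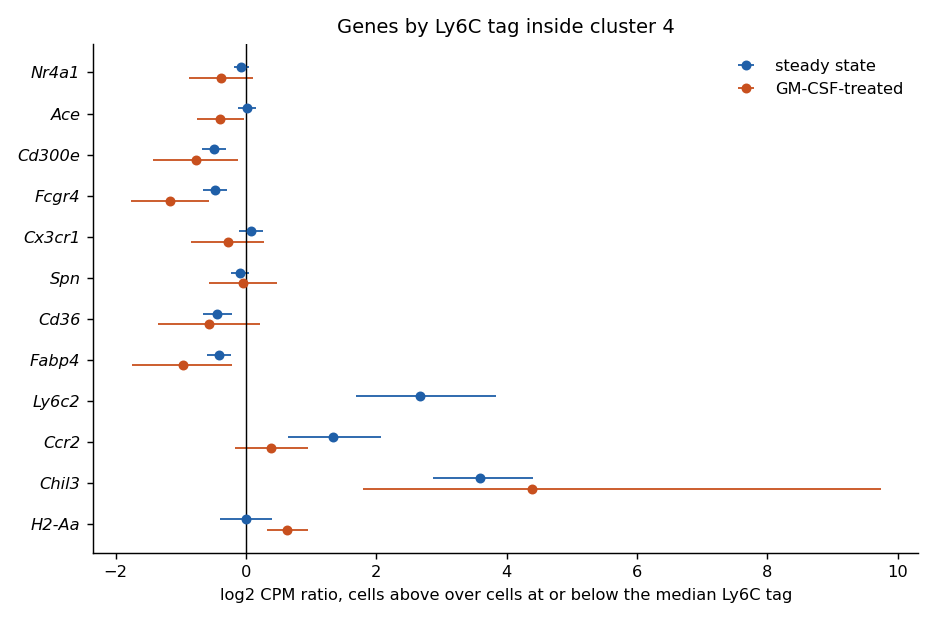
Log2 CPM ratio of cells above to cells at or below the median Ly6C tag count inside cluster 4, with exact 95% intervals, steady-state library in blue and GM-CSF-treated library in orange. Ly6c2, Ccr2 and Chil3 lie right of 0 and Cd300e and Fcgr4 left of it in steady state, and Ly6c2 after GM-CSF is left out since the lower group held no UMI.

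Markers of lymphocytes, platelets, erythroid cells and cDCs were at or near 0 in the cluster, while some genes of the neutrophil and red pulp macrophage lists were read. The 4 T cell genes in the table summed to 1 UMI in steady state and 0 after GM-CSF, 7 NK cell genes to 13 and 0, 5 platelet genes to 1 and 0, 5 erythroid genes to 20 and 0, 10 cDC genes to 10 and 3, and 5 B cell genes to 37 and 9. Neutrophil genes summed to 396 and 451 CPM over 10 genes, with Ly6g at 0, and stood at 383 and 331 CPM in cluster 2. S100a8, a calcium-binding protein gene abundant in neutrophils, was the 1 of 3 past the minimum that was higher in cluster 4 after GM-CSF, at 71.2 and 149.5 CPM. Genes of red pulp macrophages summed to 895 and 497 CPM over 10 genes, against 24411 and 23936 CPM in the macrophages, and Mertk, Cd5l and Itgad were at 0. Hpgd, the enzyme that breaks down prostaglandins, stood at 599, 257 and 224 CPM in clusters 4, 2 and 5 in steady state and 200.2, 48.9 and 86.3 CPM after GM-CSF, and was higher than in both neighbours and lower after GM-CSF. Of the same list Axl was lower than in both neighbours and Spic lower than in cluster 2 in steady state.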

How the data were processed

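Splenic CD11b+ cells were profiled by CITE-seq, 1 library per condition. The authors counted RNA with Cell Ranger 3.0.2 on mm10 and counted the tags by CITE-seq-Count. They removed cells under 200 or over 5000 genes or with over 15% of mitochondrial reads, and integrated and clustered the libraries with Seurat (3.6.0 in the submitters' processing notes) on 2000 variable genes. Deposited were raw UMI counts, raw tag counts and cell labels, together with the mitochondrial percent of each cell as deposited by the authors. Cells were taken by the deposited cluster number and no cell was removed here. Raw counts were summed per library and cluster and divided by the sum (27998 genes, 12030 of them without a UMI in the bundle). The libraries summed to 22358903 and 35007567 UMIs over all cells.

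CPM ratios of sums have exact binomial 95% intervals and shares exact Clopper-Pearson intervals. A sum of 0 was set to 3 counts for a bound. With 1 library per condition no test was run. The code was checked on simulated counts. Genes were named from the 5 markers, members of the gene lists, the 10 genes furthest above every other cluster with at least 50 cells in steady state, and the 10 highest and 10 lowest ratios of each comparison, of which some are left unnamed. Members and lists were chosen with earlier results of these data known. Some members of the lists are counted but not reported here by name. Genes named for keeping or raising their level after GM-CSF (Slc11a1 and Slc12a2) and the genes Itgam and Csf1r were named outside that rule, after their values were seen. Promoters come from RefSeq on GRCm38.p6, matched by symbol for all 5 markers. Scrublet, as in scanpy 1.11.5, called 141 (2.92%) and 186 (2.73%) of all cells doublets, and none was removed. Python 3.11.15, scipy 1.17.1, numpy 2.4.6, pandas 2.3.3 and matplotlib 3.10.9 were used. Alternatives changed the UMI minimum, the fold, the depth per cell, the cells and genes kept, the library, the denominator and the tag scale.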

Additional observations from a re-analysis of the deposited data

How the results depend on the processing

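No paired analysis was possible because each condition had 1 library with no further replicate. The counts of genes moved with the rule that makes them. With at least 20 UMIs, 564 and 520 genes were higher and lower in cluster 4 than in cluster 2, and 300 and 619 after GM-CSF in cluster 4. With no minimum the counts were 1720 and 1885 against cluster 2, 1711 and 1404 against cluster 5, and 1390 and 1091 after GM-CSF. At 3-fold they were 137 and 160, 172 and 229, and 34 and 108 in the same order, and with each cell thinned to 1000 UMIs, which leaves fewer genes past the minimum, 201 and 121, 252 and 181, and 64 and 155. Within the cells from GM-CSF-treated mice 225 and 184 genes were higher and lower than in cluster 5. Of all CD11b+ cells the cluster made up 9.53% in steady state and 2.04% after GM-CSF. With tags as centred log ratios within a cell, chosen after seeing the data, the pairs in which cluster 4 had the lower value were 4.28% (CD11c, cluster 2) and 1.45% (CD11c, cluster 5) in steady state, and 83.3% (Ly6C, cluster 2), 15.8% (CD11c, cluster 2) and 11.4% (CD11c, cluster 5) after GM-CSF. With the median ratio of all genes set to 1, also chosen after seeing the data, 160 genes were higher and 296 lower after GM-CSF. Another 55 summary values stayed within 1.5 times or within their interval.

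Of the values of single named genes, 2469 stayed within their interval, 361 moved and 21 took the opposite sign; the cause was not tested. In the GM-CSF-treated library the log2 ratio of cluster 4 to cluster 2 was 2.33 for Saa3, 0.039 for Maf, 0.28 for Osm, -0.45 for Bcl2a1d, 1.37 for Isg20, 0.35 for Fabp5, -2.88 for Abca1 and -0.21 for Abcg1. That to cluster 5 was 0.17 for Maf, -1.04 for H2-Eb1, 0.99 for Osm, 0.50 for Ifit3, 0.46 for Rsad2, 0.22 for Usp18, -2.11 for Abca1, 1.98 for Cd209a, 0.98 for Tmem176b and 1.55 for Tmem176a. Thinned to 1000 UMIs per cell, the ratio to cluster 5 was 0.40 for Cxcl10 and 0.24 for Dapk1, and that of GM-CSF to steady state was 0.0041 for Icam1. The sum of 394634 UMIs after GM-CSF limits what can be seen there to genes above 7.60 CPM. Abca1 had 0 UMIs in cluster 4 there, so its values of -2.88 and -2.11 rest on the added 0.5 counts.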

Other observations

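Cd300e, the marker with the largest ratios to clusters 2 and 5, was also read in other cells. Cluster 4 held 71.2% of all Cd300e UMIs of the steady-state library (1016 UMIs in 355 of 460 cells) and 58.6% after GM-CSF (85 UMIs in 55 of 139 cells). The rest of the bundle held 21.7% (309 UMIs in 113 of 1675 cells) and 35.9% (52 UMIs in 44 of 3801 cells). In steady state, the cells labelled B cells held 59 Cd300e UMIs in 22 of 196 cells, while those from GM-CSF-treated mice held a UMI in 0 of 79 cells, which allows up to 3.80% of cells with a UMI at this depth (3 counts). Of the 196 steady-state B cells, 26 held RNA of at least 3 of 5 cluster 4 genes (Cd300e, Fabp4, Ace, Fcgr4 and Eno3), and 25 of these 26 also held RNA of at least 2 of 5 B cell genes. Their median was 8329 UMIs, against 2976.5 over all 196, and 2 of them were called doublets. The cells labelled macrophages held 14 Cd300e UMIs in 7 of 25 cells in steady state. The set of 5 genes was chosen after these values were seen.

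Some genes outside the lists met the 2-fold rule over every other cluster in both libraries. Lair1, an inhibitory receptor for collagen, stood at 575, 192 and 80.4 CPM in clusters 4, 2 and 5 in steady state and at 210.3, 60.5 and 52.6 CPM after GM-CSF, and Ly6a, which encodes Sca-1, at 64.5, 16.1 and 5.28 CPM and 144, 64.98 and 12.9 CPM. Cyth3, an exchange factor for ARF proteins, stood at 289, 65.1 and 41.7 CPM and 134, 22.7 and 16.9 CPM. They were picked from the 16 genes that met the rule after their values were seen.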
